A study of Mus musculus with 12 samples.

Results

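The Siglec receptor genes Siglec1, Siglece, Siglecf, Siglecg, Siglech, Cd22 and Cd33 were followed by name through the gene counts of CD11b-positive cells from mouse cerebral cortex, and these 7 genes were among 55487 in the count table. All 7 passed the filter on low counts, which kept 15425 genes. RNA was sequenced from 12 male mice, with 3 in each of the groups WT veh, WT BRICHOS, App veh and App BRICHOS. App stands for App NL-G-F, a knock-in line on a C57BL/6J background, in which the mouse App gene has a humanized Aβ sequence with the Swedish, Iberian and Arctic mutations and is expressed from its own promoter, and WT mice lack these changes. Mice of both strains received 24 intravenous injections over 12 weeks from 9 months of age, either of PBS (veh) or, at 10 mg/kg each, of the recombinant human (rh) chaperone domain Bri2 BRICHOS R221E (BRICHOS), and were killed 4 weeks after the treatment ended. The cells were taken from papain-digested cortex with magnetic anti-CD11b beads, which also bind other myeloid cells.

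Siglecs are lectins of the immunoglobulin superfamily that bind sialic acids at the ends of glycan chains, on the same cell or on its neighbours. Most of them carry inhibitory motifs (ITIMs) that, once phosphorylated by Src-family kinases, recruit the phosphatases SHP-1 and SHP-2, whereas some lack the motif and couple to the activating adaptor DAP12. Microglia use them to sense self glycans, and human CD33 lies at a locus associated with the risk of Alzheimer's disease.

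Total counts ranged from 12433402 to 17889654 per library, and a floor of 3 counts corresponded to 0.169 to 0.226 CPM (counts scaled to the library's total times its TMM factor). Homeostatic microglia markers such as P2ry12 and Tmem119 summed to between 23402 and 28269 CPM in every library. The sum of 6 neutrophil markers varied among the WT libraries, with values from 32.8 to 366 CPM, against 11.5 to 33.8 CPM in App libraries. Markers of other brain cells moved with the groups as well. Those of astrocytes summed to 367 to 510.0 CPM in WT veh, 367 to 658 in WT BRICHOS, 1192 to 3820 in App veh and 549.7 to 1594 in App BRICHOS mice, and all 6 rose between the veh-treated strains. Those of oligodendrocytes summed to 4115 to 16815 CPM in WT and 3147 to 6023 CPM in App libraries, and 5 of 6 endothelial markers fell between the veh-treated strains. Those of neurons summed to 13.3 to 25.4 CPM in WT and 4.83 to 6.51 CPM in App libraries, and 3 of 6 fell. Between the veh-treated strains, 20.1% of all tested genes rose and 16.9% fell. The p-values come from edgeR's quasi-likelihood test, adjusted by Benjamini and Hochberg over all 15425 genes, and a gene is called changed at an adjusted p below 0.05. Each library came from another mouse, and intervals cover 95%.

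Within a group, the Siglec genes spanned a wide range of levels. Values of CPM per kb of exon, which allow levels of different genes to be compared, put Siglech first in the WT veh mice at 344 ± 10.1 CPM per kb (SD, n = 3). Cd33 followed at 98.1 ± 5.62, Siglece at 44.7 ± 0.816, Siglecf at 10.5 ± 0.809, Cd22 at 7.28 ± 0.804, Siglec1 at 3.51 ± 0.470 and Siglecg at 0.969 ± 0.117 CPM per kb. No library of one gene overlapped those of its neighbour in this order. The WT BRICHOS mice showed the same order.

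The order was different in App mice. Siglech and Cd33 kept the first places in the App veh mice, at 234 ± 10.0 and 57.8 ± 0.849 CPM per kb (SD, n = 3). Siglecf came next with a mean of 39.6 and libraries from 38.1 to 41.1 CPM per kb, then Cd22 with 17.4 ± 1.56, and Siglece had moved from the third to the fifth place with 11.7 ± 0.621 CPM per kb. Siglec1 at 2.74 ± 0.754 and Siglecg at 0.229 ± 0.0278 CPM per kb stayed last. The App BRICHOS mice had this order too, and in both groups the libraries of neighbouring genes did not overlap. With the longest transcript in place of all exons, neither order changed.

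**Figure D1:**
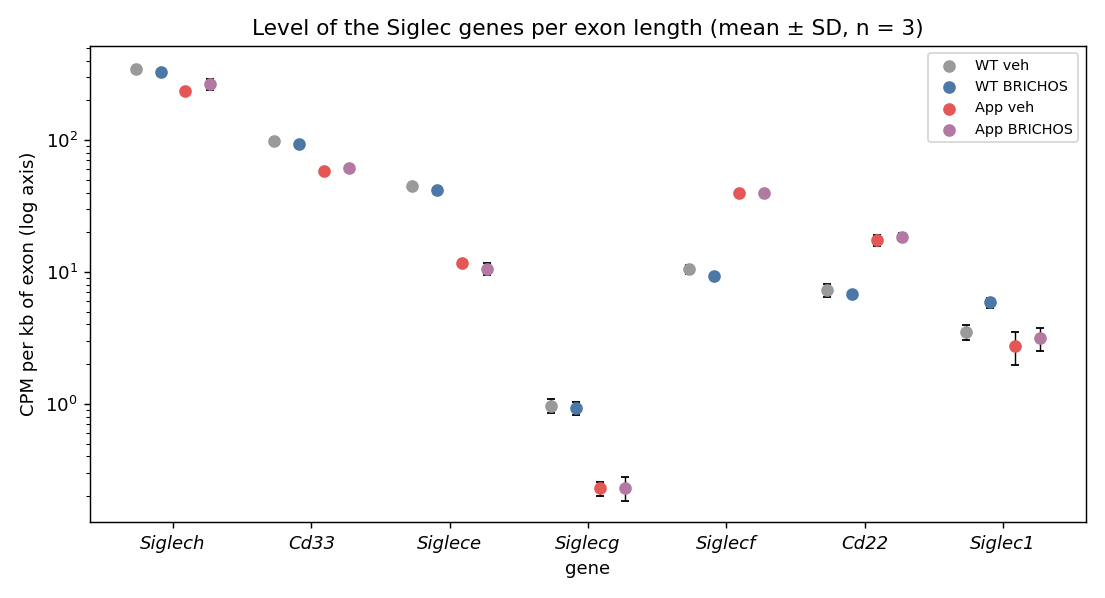
Level of each Siglec gene in CPM per kb of exon on a log axis, as the mean (points) ± SD (bars) of 3 mice in each of the 4 groups. Siglech leads in all groups at 234 to 344 CPM per kb, and Siglece lies above Siglecf in the WT groups and below it in the App groups.

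Summed over the genes, the level was 509 ± 14.0 CPM per kb in the WT veh mice and 363 ± 10.2 in the App veh mice (SD, n = 3). Siglech supplied most of it in both, with 67.6% ± 0.880 and 64.4% ± 1.16 of the sum. The share of Siglece was 8.78% ± 0.210 in WT veh mice and 3.22% ± 0.224 in App veh mice. The share of Siglecf was 2.05% ± 0.104 and 10.9% ± 0.631, and that of Cd22 was 1.43% ± 0.119 and 4.79% ± 0.410. Of Siglece, Siglecf, Siglecg and Cd22, which carry ITIMs, Siglece thus had the highest level in WT veh mice and Siglecf in App veh mice.

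The first comparison asked how the strain affects these receptors in veh-treated mice. Of the 7 genes, 6 were called changed in App veh against WT veh mice, where 37.0% of all tested genes were called. Siglecf and Cd22 rose, as did 20.1% of all genes, and Siglece, Siglecg, Cd33 and Siglech fell, as did 16.9%. For 4 of them the absolute log2 fold change exceeded 1, as it did for 10.4% of all genes together with a call. The libraries of the groups did not overlap for these 6 genes, which held for 50.9% of all genes. The median absolute log2 fold change was 1.26 for the Siglec genes and 0.32 for all genes tested. In bulk RNA, a change in the number of cells of a type and a change in RNA per cell cannot be told apart.

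Siglece, Siglecf and Siglecg are CD33-related receptors with ITIMs, encoded near Cd33 on chromosome 7. Siglecf at chr7:43351341-43359531 (+, GRCm38) and Siglecg at chr7:43408204-43418358 (+) are neighbours, with a gap of 48672 bp and 0 protein-coding genes between them. Cd33 at chr7:43524216-43544428 (-) and Siglece at chr7:43651070-43660161 (-) lie further along, with 4 protein-coding genes between them. Their promoters are shown because Siglecf rose while its neighbours fell. Each is the 250 bases before the RefSeq start of the gene (GRCm38.p6), 5′ to 3′ on the gene's strand, for Siglece chr7:43660162-43660411 (-), for Siglecf chr7:43351091-43351340 (+) and for the first of the Siglecg starts chr7:43407989-43408238 (+). Capitals mark the letters GAGGAA on either strand (TTCCTC on the reverse), the core bound by PU.1, a transcription factor of myeloid cells.
Siglece: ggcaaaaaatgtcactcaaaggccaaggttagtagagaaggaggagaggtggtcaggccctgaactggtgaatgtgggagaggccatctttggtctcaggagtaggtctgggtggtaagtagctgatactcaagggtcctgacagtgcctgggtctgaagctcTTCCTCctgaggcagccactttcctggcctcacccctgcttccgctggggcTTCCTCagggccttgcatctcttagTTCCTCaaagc
Siglecf: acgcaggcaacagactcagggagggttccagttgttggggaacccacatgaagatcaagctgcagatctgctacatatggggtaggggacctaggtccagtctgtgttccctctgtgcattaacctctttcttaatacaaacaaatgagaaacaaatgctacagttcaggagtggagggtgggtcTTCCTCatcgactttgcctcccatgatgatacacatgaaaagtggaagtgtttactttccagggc
Siglecg: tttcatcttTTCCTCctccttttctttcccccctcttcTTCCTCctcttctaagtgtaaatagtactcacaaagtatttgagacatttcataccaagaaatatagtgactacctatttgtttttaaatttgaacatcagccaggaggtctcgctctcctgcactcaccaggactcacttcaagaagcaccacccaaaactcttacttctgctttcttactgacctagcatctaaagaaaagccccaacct

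Siglece held 3 matches, beginning 87, 36 and 11 bases before the start, and Siglecf held 1, beginning 65 bases before it. Siglecg had 2 matches, 241 and 212 bases before its first start, and 0 in the window of its second start. Cd33 had 1 match, 226 bases before the start, and Siglech and Cd22 had 0. These letters occur in 23.4% of 32536 RefSeq promoter windows of the same length, so a match is frequent, and genes with a match rose as well as fell. RefSeq windows were at hand for 6 of the 7 genes, Siglec1 being without one.

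Siglecf, best known as a receptor of eosinophils and alveolar macrophages, was measured at 28.0, 27.8 and 31.8 CPM in the WT veh mice and at 106, 115 and 111 CPM in the App veh mice. Every App library thus lay above every WT library, with a wide gap. The gene was 3.79-fold higher, a log2 fold change of 1.92 with an SE of 0.0654 (edgeR, adjusted p = 4.30e-09), and ranked 14 by p-value among the 15425 genes. The summed level of the eosinophil markers was 3.65 to 6.02 CPM in WT veh mice and 0.906 to 1.31 CPM in App veh mice. Of 6 listed eosinophil genes 3 were tested, and Ccr3 and Ear2 fell, as did 16.9% of all genes. The log2 fold changes of Ccr3 and Ear2 were -2.13 and -2.17 (edgeR, adjusted p = 0.000554 and 0.000117). Il5ra had between 0 and 3 counts in each library. The part of eosinophils in the level of Siglecf was not tested.

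Siglece, an ITIM receptor found on microglia, macrophages and neutrophils, was at 81.0, 83.9 and 83.1 CPM in the WT veh mice and at 20.4, 22.6 and 21.9 CPM in the App veh mice. Within each group the libraries were close to each other, and the groups lay far apart. The gene was 3.82-fold lower, with a log2 fold change of -1.93, an SE of 0.0736 (edgeR, adjusted p = 7.08e-09) and rank 31. All 6 neutrophil markers also fell, where 16.9% of all genes did, although the groups overlapped for all 6. Among them was S100a8, with a log2 fold change of -2.91 (edgeR, adjusted p = 0.00943). In the WT veh library with the lowest neutrophil sum, 32.8 CPM, Siglece was at 83.1 CPM, and in the one with the highest sum, 366 CPM, it was at 81.0 CPM. The other groups differed from this, since there the library with the lowest neutrophil sum also had the lowest Siglece level. The sum and the level were 66.3 and 73.9 CPM in WT BRICHOS, 13.3 and 20.4 CPM in App veh, and 11.5 and 18.3 CPM in App BRICHOS mice. The part of neutrophils in the difference between the strains was not tested.

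Siglecg, an inhibitory receptor of B cells that also binds CD24, was the least abundant. It was at 4.86, 5.09 and 4.02 CPM in the WT veh mice and at 1.23, 1.11 and 0.962 CPM in the App veh mice, and the groups did not overlap. These levels rest on 54 to 86 counts per WT veh library and on 13 to 19 per App veh library. The gene was 4.20-fold lower, with a log2 fold change of -2.07 and an SE of 0.210 (edgeR, adjusted p = 1.57e-05). Of its exon sequence, 4.48% of the 50-base stretches occurred in another gene, Siglecf among them, the largest such share of the 7 genes.

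B cell genes partly moved the same way as Siglecg. Of 8 listed markers 7 were tested, and Cd79b and Ighd fell while the other 5 were not called, where 16.9% of all genes fell. Cd79b, a part of the B cell receptor, was at 10.6 ± 1.08 CPM in WT veh and at 4.86 ± 0.608 CPM in App veh mice (SD, n = 3), a log2 fold change of -1.12 (edgeR, adjusted p = 0.000124). The defining markers Cd79a, Ms4a1 and Pax5 had group means of at most 0.392 CPM in veh-treated mice of both strains. The summed level of the list was 396 to 441 CPM in WT veh and 359 to 413 CPM in App veh mice, nearly all of it Ighm, which is named after its values were seen. The part of B cells in the result was not tested.

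Cd22 encodes an ITIM receptor that restrains B cell receptor signalling, prefers sialic acid in alpha-2,6 linkage and is also made by microglia. It lies at chr7:30865402-30880342 (-, GRCm38), apart from the group around Cd33. The level was 33.0, 36.1 and 41.0 CPM in the WT veh mice and 79.2, 89.4 and 94.6 CPM in the App veh mice. The lowest App library was well above the highest WT library. Cd22 was 2.39-fold higher, with a log2 fold change of 1.26 and an SE of 0.0924 (edgeR, adjusted p = 1.16e-06). The B cell markers are given above for Siglecg, and their part in the level of Cd22 was not tested. The antisense gene Gm29439 shares 479 bp of exon with Cd22, and it had 28 counts over all 12 libraries.

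Siglech and mouse Cd33 are usually counted among the receptors without a classical ITIM, and Siglech couples to DAP12. Siglech, a marker of microglia in the brain and of plasmacytoid dendritic cells elsewhere, was at 1128, 1172 and 1195 CPM in the WT veh mice and at 804, 753 and 817 CPM in the App veh mice, without overlap. It was 1.47-fold lower, with a log2 fold change of -0.56 and an SE of 0.0723 (edgeR, adjusted p = 0.000105). Of 6 plasmacytoid dendritic cell markers 3 were tested, and Cox6a2 and Pacsin1 rose, as did 20.1% of all genes. The rises were 3.98 and 2.90 on the log2 scale (edgeR, adjusted p = 1.67e-07 and 5.48e-08). Klk1, another listed marker, was at 0 in every library, and Ccr9 had at most 6 counts in a library. Summed, the list reached 527 to 589.9 CPM in WT veh and 673 to 716 CPM in App veh mice, most of it from Lair1, which is named after its values were seen, was at 538 and 579.8 CPM and was not called (edgeR, adjusted p = 0.207). The part of plasmacytoid dendritic cells in the level of Siglech was not tested.

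Cd33 was at 773, 714 and 799.9 CPM in the WT veh mice and at 456, 442 and 448 CPM in the App veh mice. The App libraries lay close together and below all WT libraries. The gene was 1.70-fold lower, with a log2 fold change of -0.76 and an SE of 0.0531 (edgeR, adjusted p = 7.12e-07). Genes of homeostatic microglia moved in both directions in this comparison. Of 10 listed, 7 fell, as did 16.9% of all genes, and 2 rose, as did 20.1%. Those that fell included P2ry12 with a log2 fold change of -1.06 (edgeR, adjusted p = 1.31e-07) and Tmem119 with -1.20 (edgeR, adjusted p = 1.41e-05). Among those that rose was Fcrls, by 0.41 on the log2 scale (edgeR, adjusted p = 0.00347), and Olfml3 was not called.

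**Figure D2:**
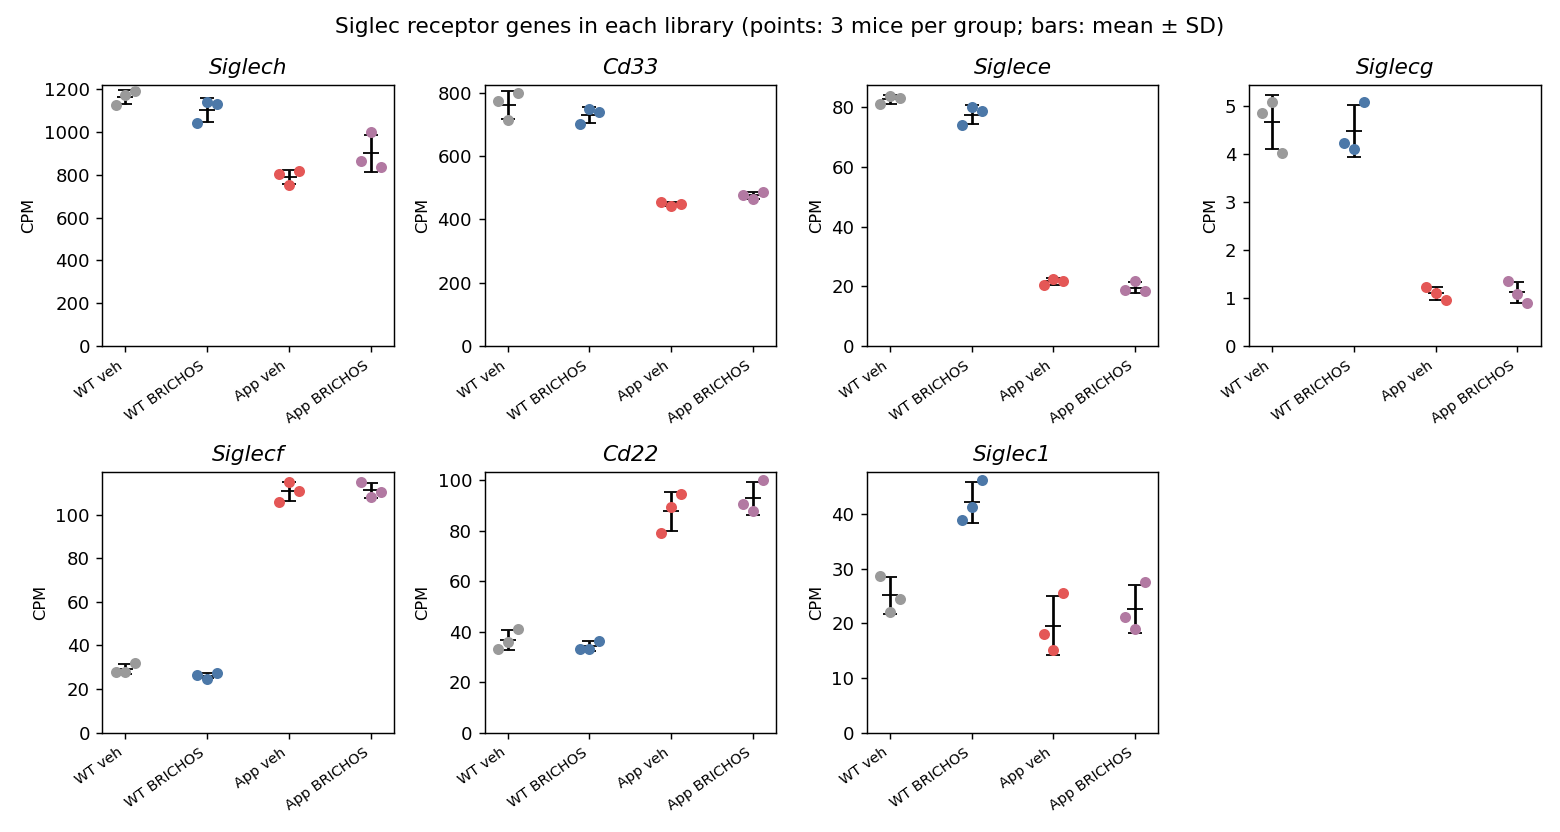
CPM of each Siglec gene in the 12 libraries, with a panel and its own axis from 0 for each gene. Points are mice, and bars give the mean ± SD of 3 mice in each group. Siglecf and Cd22 are higher and Siglech, Cd33, Siglece and Siglecg lower in both App groups, while Siglec1 is highest in WT BRICHOS mice at 38.9 to 46.1 CPM.

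Siglec1 (sialoadhesin, CD169) has a long extracellular part and no ITIM, serves adhesion and uptake, and marks macrophages at the borders of the brain rather than microglia. It lies at chr2:131069220-131086765 (-, GRCm38), away from the others. Its level was 28.7, 22.1 and 24.5 CPM in the WT veh mice and 18, 15.1 and 25.5 CPM in the App veh mice, so that the groups overlapped through the third App library. The log2 fold change was -0.36, with an interval from -0.78 to 0.05 (edgeR, adjusted p = 0.154). Without that library it was -0.60 (edgeR, adjusted p = 0.0182), and Siglec1 was then called. Without the second App library it was -0.21 (edgeR, adjusted p = 0.444), and without any other single library it was between -0.45 and -0.26 and not called.

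Genes of border macrophages fell in the same comparison. Of 10 markers, 8 were called lower in App veh mice, as were 16.9% of all genes. Among them were the scavenger receptor genes Stab1 with a log2 fold change of -1.37 and Cd163 with -1.06, and the mannose receptor gene Mrc1 with -1.15 (edgeR, adjusted p = 9.31e-07, 3.81e-05 and 8.01e-05). The remaining 2, Folr2 and Ms4a7, had log2 fold changes of -0.09 and -0.26 and were not called. The sum of the 10 markers was 1423 to 1548 CPM in WT veh and 538 to 725 CPM in App veh mice. The third App library, which had the highest Siglec1 level of its group, also had the highest marker sum, 725 CPM. In App BRICHOS mice the highest values again fell in the same library, with 27.5 CPM of Siglec1 and a sum of 668 CPM. Both WT groups went the other way. There the library with the most Siglec1 had the lowest sum, with 28.7 and 1423 CPM in WT veh and 46.1 and 1682 CPM in WT BRICHOS mice. Siglec1 is known to be induced by interferon as well. Of 12 interferon-stimulated genes 5 rose and 0 fell, where 20.1% of all genes rose and 16.9% fell. Among those that rose was Oasl2, with a log2 fold change of 1.10 (edgeR, adjusted p = 0.000721). The part of either in the level of Siglec1 was not tested.

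The strains were compared a second time with BRICHOS in both, in 6 other mice. All 7 genes were called changed, where 42.5% of all tested genes were called, and their libraries did not overlap, as for 51.7% of all genes. 2 of them rose, as did 20.8% of all genes, and 5 fell, as did 21.8%. The absolute log2 fold change exceeded 1 for 4 of them, as it did for 15.9% of all genes together with a call. All 7 estimates had the direction seen in the veh-treated mice. Siglecf had 26.4, 24.8 and 27.4 CPM in the WT BRICHOS mice and 115, 108 and 110.4 CPM in the App BRICHOS mice, a log2 fold change of 2.09 (edgeR, adjusted p = 2.01e-09). Cd22 had 33.3, 33.2 and 36.5 CPM against 90.8, 87.7 and 100.1 CPM, a log2 fold change of 1.43 (edgeR, adjusted p = 3.65e-07). Both were thus again higher in each App mouse.

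Siglece and Siglecg were again the genes with the largest falls among the Siglecs. Siglece was at 73.9, 80.1 and 78.7 CPM in the WT BRICHOS mice and at 18.6, 21.7 and 18.3 CPM in the App BRICHOS mice, a log2 fold change of -1.99 (edgeR, adjusted p = 5.20e-09). Siglecg was at 4.22, 4.11 and 5.09 CPM against 1.35, 1.09 and 0.905 CPM, also a log2 fold change of -1.99 (edgeR, adjusted p = 1.86e-05). Again every App library lay below every WT library, by a wide gap.

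Cd33, at 700.4, 747 and 739.9 CPM in the WT BRICHOS and 476, 464 and 487 CPM in the App BRICHOS mice, had a log2 fold change of -0.62 (edgeR, adjusted p = 3.71e-06). Siglech, at 1041, 1141 and 1132 CPM against 867, 1000 and 838 CPM, had a log2 fold change of -0.29 (edgeR, adjusted p = 0.00676). The gap between the strains in Siglech was small here, since the highest App library came close to the lowest WT library. Siglec1 was at 38.9, 41.2 and 46.1 CPM in the WT BRICHOS mice and at 21.2, 19.0 and 27.5 CPM in the App BRICHOS mice, a log2 fold change of -0.90 (edgeR, adjusted p = 0.00229). Of the 10 border macrophage markers 9 fell in this comparison, as did 21.8% of all genes.

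**Figure D3:**
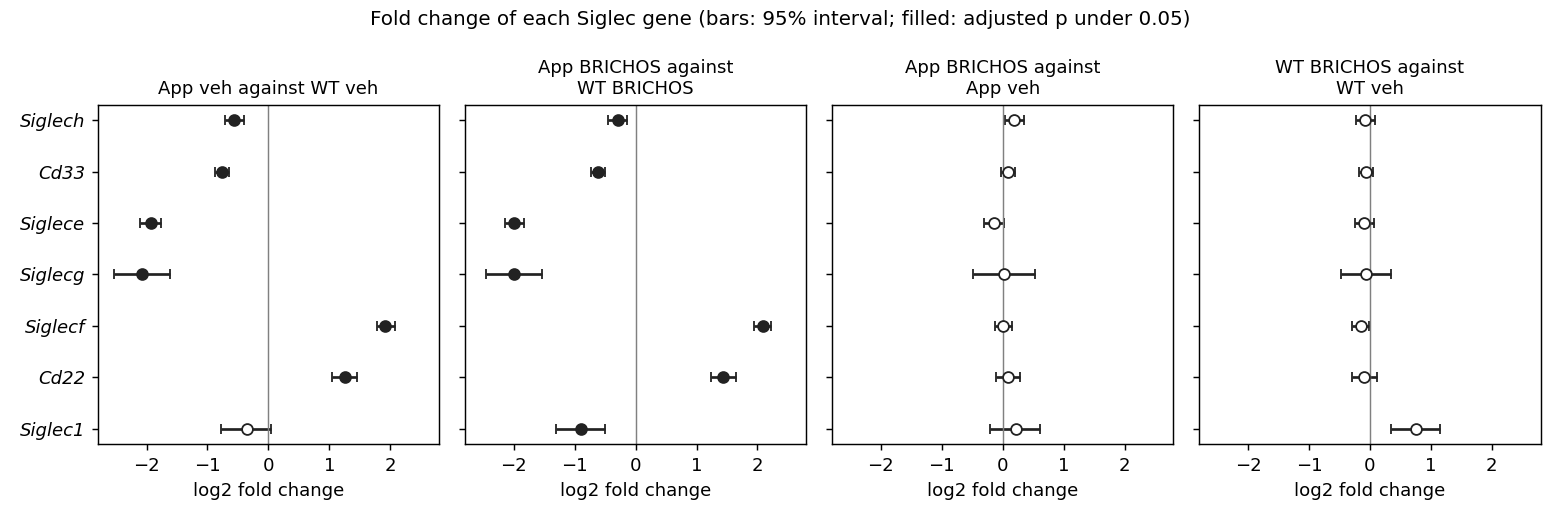
Log2 fold change of each Siglec gene in 4 comparisons, as estimates (points) with 95% intervals (bars). Filled points have an adjusted p below 0.05. The strain comparisons hold 6 and 7 filled points and the treatment comparisons 0.

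To see whether BRICHOS affects the receptors, treated and veh-treated mice of each strain were compared. These comparisons use the same libraries as those between the strains and are not independent of them. In App mice, 0 of the 7 genes were called by edgeR, and 0 by DESeq2. Of all genes, 0.00648% were called by edgeR. DESeq2 called 119 of 15425 with all libraries and 48 of 14298 with only the compared groups. At an unadjusted p below 0.05, 1 was found, where 10.8% of all genes were. Libraries did not overlap for 2 of the 7, Siglech and Cd33, as for 13.5% of all genes. Markers of other brain cells were lower with the treatment at an unadjusted p below 0.05, as were 1183 of the 15425 genes. These were 6 of 6 astrocyte and 5 of 6 endothelial markers, with median log2 fold changes of -1.31 and -0.64 over the lists, and 0 were called by edgeR. Their part in the treatment effects was not tested.

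Siglech was at 804, 753 and 817 CPM in the App veh mice and at 867, 1000 and 838 CPM in the treated ones. Each treated mouse lay above each veh-treated mouse. The log2 fold change was 0.19, with an interval from 0.03 to 0.35 (edgeR, unadjusted p = 0.0234, adjusted p = 0.373), which does not pass the correction. The estimate ranged from 0.12 to 0.24 when 1 library was left out. Cd33 had a log2 fold change of 0.08, with an interval from -0.03 to 0.20, and was also higher in 3 of 3 treated mice. Tyrobp, the gene for the adaptor DAP12, had a log2 fold change of 0.21 (edgeR, adjusted p = 0.447).

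Among the other genes the intervals of the treatment effect in App mice differed in width. The log2 fold change of Siglecf was 0.01, with an interval from -0.13 to 0.15, that of Cd22 was 0.08, from -0.11 to 0.28, and that of Siglece was -0.15, from -0.31 to 0.02. Siglecg, with few counts, had a wider interval, from -0.49 to 0.53, and so had Siglec1, from -0.21 to 0.62. Changes of 1 on the log2 scale thus lie outside all of these intervals, while smaller ones remain possible.

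In WT mice, 0 of the 7 genes were called changed by the treatment, where 0% of all genes were called by edgeR. At an unadjusted p below 0.05, 2 were found, where 11.4% of all genes were, and libraries did not overlap for 3, as for 17.5% of all genes. Siglec1 had the lowest p-value. It was at 28.7, 22.1 and 24.5 CPM in the veh-treated and at 38.9, 41.2 and 46.1 CPM in the WT BRICHOS mice, higher in 3 of 3 mice. The 1.68-fold difference had a log2 fold change of 0.75 and an interval from 0.34 to 1.15 (edgeR, unadjusted p = 0.00177, adjusted p = 0.239). By DESeq2's Wald test, the study's own tool, the adjusted p was 0.0330 with all libraries in the fit and 2.48e-05 with only the groups compared, and across all alternatives it ranged from 2.48e-05 to 0.665.

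Border macrophage markers stood on the same side as Siglec1. Their sum was 1423, 1450 and 1548 CPM in the veh-treated and 1828, 1773 and 1682 CPM in the WT BRICHOS mice, without overlap. Of the 10 markers, 6 were higher at an unadjusted p below 0.05, as were 1010 of all 15425 genes. By edgeR 0 of the 10 were called. Lyve1 had a log2 fold change of 0.68 (edgeR, adjusted p = 0.224) and Cd163 one of 0.49 (edgeR, adjusted p = 0.239). These 2 were called by DESeq2 with all libraries, as were 80 of 15425 genes in either direction. With only the compared groups, DESeq2 called 4 of the 10 markers, Cd163, F13a1, Lyve1 and Mrc1, and 134 of all 14821 genes. Of the 12 interferon-stimulated genes 0 reached an unadjusted p below 0.05, where 11.4% of all genes did. In App mice, Siglec1 had a log2 fold change of 0.21 with the treatment, from 0.04 without App BRICHOS replicate 3 to 0.44 without App veh replicate 3, and the marker sum was 556 to 668 CPM in the treated mice. The difference between the strains in the treatment effect on Siglec1 was -0.54, with an interval from -1.12 to 0.04 (edgeR, adjusted p = 0.366), and lay between -0.70 without App BRICHOS replicate 3 and -0.30 without App veh replicate 3.

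**Figure D4:**
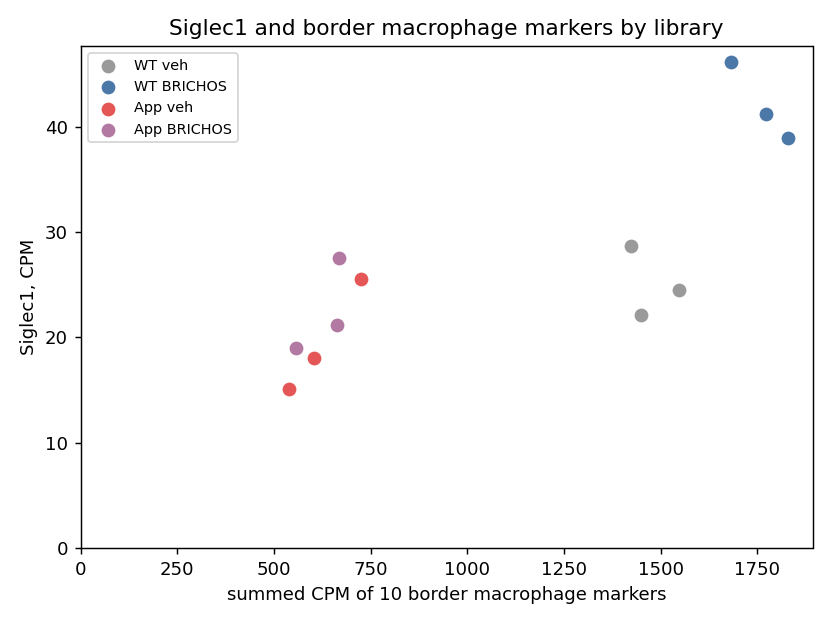
Siglec1 in CPM against the summed CPM of 10 border macrophage markers, with a point for each of the 12 libraries coloured by group. The WT BRICHOS mice lie at the upper right, with 38.9 to 46.1 CPM of Siglec1, the WT veh mice have marker sums of 1423 to 1548 CPM, and the App mice have sums of 538 to 725 CPM.

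Effects of the treatment on the other Siglec genes of WT mice were small. Siglecf was at 28.0, 27.8 and 31.8 CPM in the veh-treated and at 26.4, 24.8 and 27.4 CPM in the WT BRICHOS mice, a log2 fold change of -0.15 (edgeR, unadjusted p = 0.0379, adjusted p = 0.409). When 1 library was left out, the estimate ranged from -0.19 to -0.09. Siglece was lower in 3 of 3 treated mice too, with a log2 fold change of -0.09 and an interval from -0.24 to 0.06. The log2 fold changes of Cd22, Cd33, Siglech and Siglecg were between -0.10 and -0.06. None of the 7 genes was called in the test of whether the treatment effect differs between the strains, by edgeR or by DESeq2. Of all genes, 0.00648% were called by edgeR, and 244 of 15425 by DESeq2 with all libraries. Of the 7 genes 1, Siglech, had an unadjusted p below 0.05 by edgeR, as had 14.8% of all genes.

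The adaptors and enzymes that act next to the receptors were taken from fixed lists. The part of the astrocyte, oligodendrocyte, endothelial and neuronal RNA given above in their levels was not tested. Of the adaptors, Tyrobp (DAP12) was at 770.1 ± 22.2 CPM in WT veh and at 2294 ± 183 CPM in App veh mice (SD, n = 3), a log2 fold change of 1.57 (edgeR, adjusted p = 2.12e-07). Hcst, which encodes the related adaptor DAP10, rose by 1.78 on the log2 scale (edgeR, adjusted p = 1.32e-06). Both adaptors thus rose where the DAP12-coupled receptor Siglech fell. Both were called again between the treated strains, with log2 fold changes of 1.84 and 1.86.

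Of 14 kinases, phosphatases and related genes that act at ITIMs or downstream of the activating adaptors, 3 rose, 9 fell and 2 were not called in App veh against WT veh mice, where 20.1% of all genes rose and 16.9% fell. Ptpn6, which encodes SHP-1, rose by 0.45 on the log2 scale (edgeR, adjusted p = 3.55e-05), and the Src-family kinase genes Fgr and Fyn rose by 2.29 and 1.20 (edgeR, adjusted p = 3.59e-08 and 2.50e-06). Lyn, the gene for another kinase of the same family, fell, with a log2 fold change of -0.38 (edgeR, adjusted p = 8.62e-05). Syk, the kinase that acts downstream of DAP12, had -0.49, and Inpp5d, the gene for the lipid phosphatase SHIP1, had -0.47 (edgeR, adjusted p = 7.43e-06 and 2.86e-05). The median log2 fold change of the list was -0.28, against -0.02 for all genes tested. Between the treated strains 3 of the 14 rose and 6 fell, where 20.8% of all genes rose and 21.8% fell.

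Sialic acid itself is made in the cell, activated to CMP-sialic acid and joined to glycans by sialyltransferases. Between the same groups, with the same shares of 20.1% of all genes higher and 16.9% lower, 2 of 5 tested synthesis genes rose, 1 fell and 2 were not called. Nans and Cmas, the genes for sialic acid synthase and for the enzyme that activates the sugar, had log2 fold changes of 0.32 and 0.28 (edgeR, adjusted p = 0.0138 and 0.0233). Cmah, whose enzyme converts the activated sugar to the glycolyl form that mouse Cd22 prefers, fell, being at 4.18 CPM in WT veh and 1.53 CPM in App veh mice, with a log2 fold change of -1.45 (edgeR, adjusted p = 0.00164). Gne, the gene for the first enzyme of the pathway, was at 24.6 and 24.5 CPM, a log2 fold change of -0.01 (edgeR, adjusted p = 0.968).

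Of 18 tested sialyltransferase genes 6 rose, as did 20.1% of all genes, 5 fell, as did 16.9%, and 7 were not called. St8sia6, whose enzyme builds alpha-2,8-linked disialic acid, a ligand of Siglece, had the largest rise of the list. It was at 27.2 ± 2.86 CPM in WT veh and 216 ± 16.3 CPM in App veh mice (SD, n = 3), 7.92-fold higher with a log2 fold change of 2.98 (edgeR, adjusted p = 2.99e-09). In the treated strains the log2 fold change was 3.10 (edgeR, adjusted p = 2.01e-09). St6gal1, whose enzyme makes the alpha-2,6 linkage that Cd22 binds, rose by 0.72 on the log2 scale (edgeR, adjusted p = 1.87e-06), and St8sia4, a polysialyltransferase gene, rose by 0.81 (edgeR, adjusted p = 8.93e-05). St3gal5, the gene for the synthase of ganglioside GM3, fell, with a log2 fold change of -0.73, and so did St3gal6, with -0.40 (edgeR, adjusted p = 1.14e-05 and 0.000722). Thus the linkage genes moved in both directions.

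Of 7 tested genes that remove or recycle sialic acid 4 rose and 0 fell, against 20.1% and 16.9% of all genes. Ctsa, the gene for the protective protein that the lysosomal sialidase needs, was 2.15-fold higher, with a log2 fold change of 1.10 (edgeR, adjusted p = 2.31e-07). Neu1, the gene for that sialidase, rose by 0.26, and Slc17a5, the gene for the lysosomal sialic acid exporter, by 0.59 on the log2 scale (edgeR, adjusted p = 0.0251 and 0.00119). Siae rose by 0.38 (edgeR, adjusted p = 0.00425).

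Genes for sialylated carriers of Siglec ligands were split, where 20.1% of all genes rose and 16.9% fell. Of 5, Cd52 and Ptprc (CD45, a Cd22 ligand) rose by 2.01 and 0.66 on the log2 scale (edgeR, adjusted p = 3.78e-07 and 1.67e-06). Selplg and Cd24a fell, with log2 fold changes of -0.71 and -1.21 (edgeR, adjusted p = 5.42e-05 and 0.0110), and Spn was not called. Cd24a, the gene for the Siglecg ligand CD24, and Siglecg were thus both lower. With BRICHOS, 0 of the 51 tested genes of these 6 lists were called by edgeR in either strain, and 10 in App and 8 in WT mice had an unadjusted p below 0.05, as had 10.8% and 11.4% of all genes. DESeq2 with all libraries called 0 in App mice and 1, Fgr, in WT mice, and with only the compared groups 0 in both. Of all 15425 genes it called 119 in App and 80 in WT mice with all libraries. With only the compared groups it called 48 of 14298 and 134 of 14821. Of the Siglecs outside the 7, Siglec15 had at most 1 count in a library, and the myelin gene Mag was at 251 ± 122 CPM in WT veh and 124 ± 25.6 CPM in App veh mice (SD, n = 3; edgeR, adjusted p = 0.196).

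**Figure D5:**
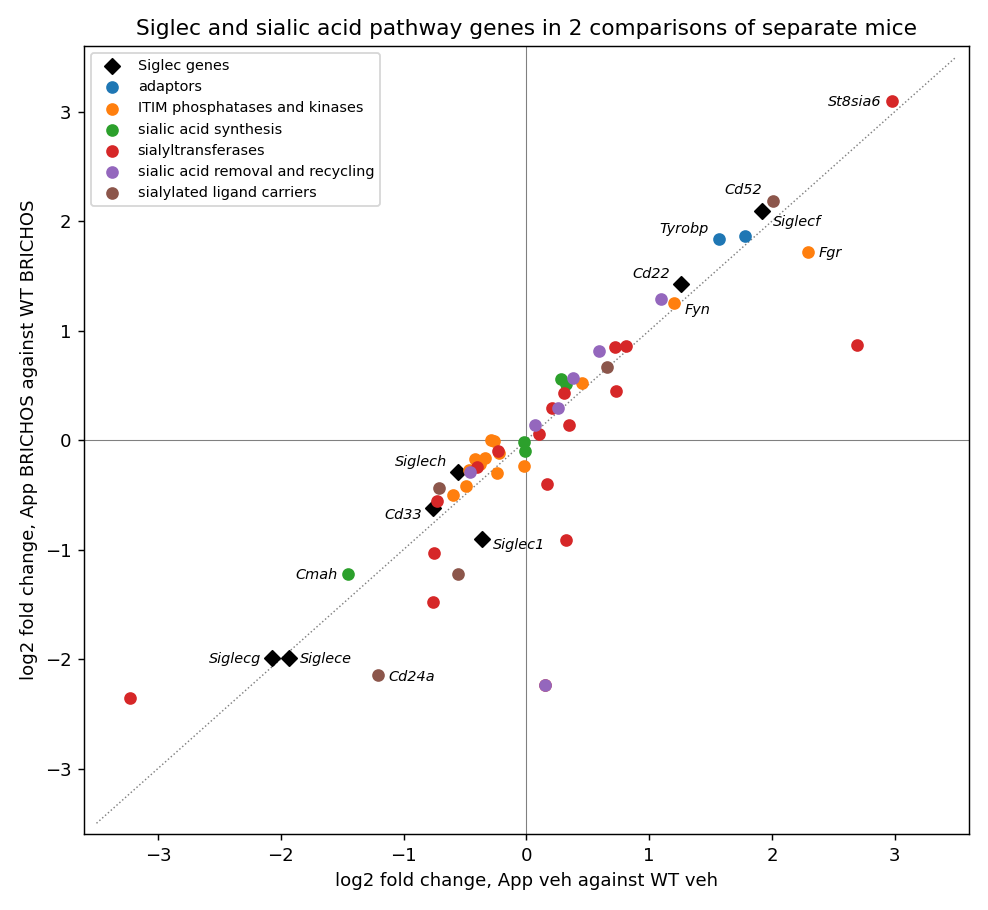
Log2 fold change between the strains in veh-treated mice (x axis) and in BRICHOS-treated mice (y axis), for the Siglec genes (diamonds) and the genes of 6 pathway lists (circles). The axes rest on separate mice, and the dotted line marks equal values. Siglecf (1.92 and 2.09) lies near Cd52, and Siglece (-1.93 and -1.99) lies beside Siglecg.

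For the 6 genes called in the veh-treated strains, the genes with the most similar pattern over the 12 libraries were sought by the root mean square (RMS) difference of log2 CPM, each gene taken relative to its own mean. Siglecf was nearest to Ctsl, Serpine2 and Vat1, at RMS differences of 0.0848, 0.113 and 0.119. Ctsl, the gene for the lysosomal protease cathepsin L, was at 814 CPM in WT veh and 2959 CPM in App veh mice. Cd22 was nearest to Bri3bp, Naglu and Cd34, at 0.0419, 0.0644 and 0.0686. Naglu encodes a lysosomal enzyme of heparan sulfate breakdown.

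The genes that fell had other neighbours. Siglece was nearest to Crybb1, Ecscr and Tmem204, at RMS differences of 0.131, 0.170 and 0.181. Siglecg shared Ecscr and Crybb1 with it, at 0.148 and 0.183, and had Siglece itself next, at 0.187. Siglech was nearest to Pld4, Plcl2 and Trim26, at 0.0496 to 0.0556. Cd33 was nearest to Arvcf, Ptgs1 and the purinergic receptor gene P2ry13, at 0.0445 to 0.0569. Ranked by Pearson correlation instead, 0 of the 3 neighbours of Siglece and of Siglecf were the same, 1 of Siglecg and 2 each of Siglech, Cd22 and Cd33.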

How the data were processed

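The authors trimmed reads with Cutadapt, aligned them to GRCm38 with STAR (2.6.1d in the submitters' processing notes; another version stands in the methods), counted them per gene with featureCounts 1.5.1 and deposited raw counts without normalization. Libraries were made with a stranded mRNA kit, and the strand setting of the counting and the handling of reads that fit several genes are not given in the sources used here.

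Groups were read from the sample titles. Of 55487 genes, 26314 had no count and 55227 were matched to a symbol in GENCODE vM21. Genes were kept by filterByExpr of edgeR 4.0.16 (R 4.3.3) with a minimum count of 10, scaled by TMM factors and tested with edgeR's quasi-likelihood method, with the 4 groups as separate coefficients, where DESeq2 was the study's tool. Benjamini-Hochberg adjustment was over the 15425 genes. The study's thresholds were an unadjusted p below 0.05 and, for differential expression, an absolute log2 fold change above 1. CPM values use the TMM factors, lengths are merged exons, and log2 CPM for pattern likeness has a prior count of 2. Intervals are the log2 fold change ± the t quantile times its SE. They give the uncertainty of the difference between groups, not the range of single mice. The SE was obtained as the absolute log2 fold change divided by the square root of the test's F statistic. The fit was tested on simulated data. Python 3.11.15, pandas 2.3.3 and matplotlib 3.10.9 were used.

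The Siglec genes and all gene lists were chosen with earlier results of these data known. Genes were named by a rule: the 7 Siglec genes, at most 6 genes per list with the lowest p-values between the veh-treated strains, Tyrobp, Ptpn6, Lyn, Gne, Neu1 and Mag, and the 3 genes most like each changed Siglec gene. Genes outside it, such as Fcrls, Olfml3, Ighm, Folr2, Ms4a7, Klk1, Ccr9, Il5ra and Siglec15, are named to complete a count. Some listed genes are not reported here by name. Alternatives were DESeq2's size factors and Wald tests, other filters, a fit of the compared groups only, the replicate number as a block, the study's thresholds, and leaving out each library.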

Additional observations from a re-analysis of the deposited data

Results flagged for a closer look

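Among the 7 Siglec genes and the 51 tested genes of the pathway lists, 6 were flagged by 2 conditions. Every treated mouse of one strain lay above, and every treated mouse of the other below, the mean CPM of its veh-treated group. The difference of the treatment effects (App minus WT, log2 scale) also had an unadjusted p below 0.05. None of them passed the adjustment over all genes. Such an unadjusted p was found for 1 of the 7 and 10 of the 51 genes, and for 14.8% of all tested genes. The share of all genes that meet both conditions was not computed. For Siglech the difference was 0.26 (edgeR, unadjusted p = 0.0242, adjusted p = 0.267), with treatment effects of 0.19 in App and -0.08 in WT mice. Among the kinases, phosphatases and related signalling genes, the difference was 0.20 for Inpp5d and 0.26 for Vav1 (edgeR, adjusted p = 0.243 and 0.200). Among the sialic acid genes, it was 0.28 for Cmas and -0.57 for St3gal4 (edgeR, adjusted p = 0.310 and 0.157). For the carrier gene Selplg it was 0.27 (edgeR, adjusted p = 0.325).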

How the results depend on the processing

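The number of Siglec genes called between the veh-treated strains was 6 or 7 when each library was left out in turn, and that between the treated strains was 7 throughout. Both counts of 0 for the treatment and that of 0 for the difference of its effects held in all of these fits. For Siglecf, Siglece, Siglecg, Cd22, Cd33 and Siglech, direction and call between the strains held in all 19 alternatives, with log2 fold changes from 1.89 to 1.99 for Siglecf and from -1.97 to -1.89 for Siglece in the veh-treated mice. With an unadjusted p below 0.05 as the threshold, 1 Siglec gene passed for the treatment in App mice, 2 in WT mice and 1 for the difference of the effects. With the study's fold threshold added, 4 passed between the treated and 4 between the veh-treated strains, as did 2666 and 1876 of the 15425 genes, and 0 passed for the treatment in either strain, where 546 genes did in App and 392 in WT mice. DESeq2's Wald test called 1 in WT mice, Siglec1, with all libraries or only the compared groups in the fit, and the cause was not tested. Small effects changed sign when a library was left out: the effect of BRICHOS in App mice ranged from -0.01 to 0.04 for Siglecf and from -0.14 to 0.14 for Siglecg, that in WT mice from -0.17 to 0.01 for Siglecg, and the difference of the effects from -0.08 to 0.21 for Siglecg. Siglecg had 12 to 21 counts in App and 54 to 89 counts in WT libraries, and the part of depth in its ranges was not tested. Other small effects moved without changing sign, in App mice from 0.03 to 0.14 for Cd22 and from -0.22 to -0.10 for Siglece. In WT mice that of Cd22 ranged from -0.17 to -0.01.

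Counts over all genes were less stable for the treatment. In App mice 1 gene was called by the quasi-likelihood fit, 119 or 48 by DESeq2 with all libraries or only the compared groups, 25 without a filter, and 162 without App veh replicate 3. In WT mice these numbers were 0, 80, 134, 12 and 1, and for the difference of the effects 1, 244 with DESeq2 and all libraries, 107 and 88. DESeq2's size factors gave 646 higher and 1125 lower genes at an unadjusted p below 0.05 for the treatment in App mice, against 490 and 1183.

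The main fit did not pair libraries by replicate number. Between libraries of equal number, the correlations of their deviations ranged from -0.0148 to 0.227, and in no comparison did all 3 exceed 0.1. These values do not settle whether equal numbers share an effect. With the replicate block, the Siglec genes called between the veh-treated strains were again 6, Siglec1 having an adjusted p of 0.0515 (edgeR), and 7 between the treated strains. Over all genes the block gave 5991 calls between the veh-treated and 6822 between the treated strains, against 5710 and 6560 without it.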
